A study of Homo sapiens with 8 samples.

Results

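The genes described here encode the enzymes and scaffold proteins that shorten the poly(A) tail of an mRNA, remove its cap and digest the body: CNOT1, CNOT2, CNOT6, CNOT7 and CNOT8 of the CCR4-NOT complex, PAN2 and PAN3 of the PAN2-PAN3 complex, the decapping enzyme DCP2, the exonuclease XRN1 and the helicase DDX6. All array probes whose transcript accession belongs to one of these 10 genes in the RefSeq gene table used were taken as members, whatever their values. Probes were matched in this way to 9 of the 10 genes, and these made up 20 of the 41000 probes. For CNOT6, a catalytic subunit of CCR4-NOT, the accession lookup gave no match. The array holds probes annotated to a CNOT6 transcript that the RefSeq gene table lacks. They were not matched, so CNOT6 was not analysed here and no value is given for it. After the filters on detection and dye difference 17 of the 20 member probes were kept, out of 22470 kept probes in all, and all 9 genes had a kept probe.

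The samples came from L1236, a Hodgkin lymphoma (HL) cell line. One population was transduced with the empty pMSCV-PIG vector (EV) and the other with a miR-155 sponge, a retrovirally expressed transcript with repeated binding sites that is meant to sequester miR-155, and both populations were sorted for GFP. From each, total cellular RNA (T) and RNA co-precipitated with an anti-Ago2 antibody (IP) were hybridised on 4 two-colour arrays with the dyes swapped, which gave 8 channels in 4 groups. Each group was 1 RNA sample, labelled once with Cy3 and once with Cy5. The dye labellings are technical repeats, so no p-value could be given, and each ± below is the SD over the 2 dye orientations (for an IP/T ratio) or the 2 dyes (for a change between populations). In bulk RNA like this, a lower signal from fewer cells that express a gene and from less RNA per cell cannot be told apart.

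Ago2 is the core of the miRNA-induced silencing complex. Its partners of the TNRC6 (GW182) family bind both PAN2-PAN3 and CCR4-NOT, which shorten the poly(A) tail of the bound mRNA. Tail loss is followed by removal of the cap by DCP2 and 5′ to 3′ digestion by XRN1, and DDX6 takes part in translational repression. The proteins are thus the effectors of silencing, while the arrays measured whether their own mRNAs were found in the Ago2-IP. The miRNA that the sponge was built against is shown here because the populations compared differ in the sponge against it. The capitals mark its seed, bases 2 to 8 of the 24 bases in the RefSeq record, which lies at chr21:25573983-25574006 on the + strand of GRCh38.p14.
hsa-miR-155-5p: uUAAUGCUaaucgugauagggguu

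Signals were checked before the ratios were compared. Between 54.1% (sponge T in Cy5) and 65.7% (sponge IP in Cy5) of the spots were well above background, and 0 spots were saturated. Of the 20 member probes, 18 were well above background in all 8 channels, and the exceptions were 2 dim XRN1 probes that missed this in the sponge T Cy5 channel. All 8 Hodgkin cell markers looked at, among them TNFRSF8 (CD30), CCL17 and IRF4, were kept. Of 6 B-cell markers that HL cells often lose, 4 were kept, whereas MS4A1 (CD20) and CD22 were not well above background in any channel. Of 4 T-cell markers CD4 was kept, CD3E and CD2 were not kept but were well above background in 8 and 7 of the 8 channels, and CD3D was not above background in any. Of 3 monocyte markers CD14 and CSF1R were kept. The mature miR-155 is not measured by these arrays. The probe of its host transcript MIR155HG changed by -0.62 ± 0.12 in T and by -0.38 ± 0.08 in IP between EV and sponge cells (log2).

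The first comparison asked which of the decay factor mRNAs were enriched in the Ago2-IP, expressed as the IP/T ratio, with the 2-fold limit that the study used for its miRNA targetome. As a group the members were mildly enriched, and few reached the limit. In EV cells the median log2 IP/T of the 17 probes was 0.66 ± 0.03, or 1.58-fold, with 12 probes above 0 and 5 below and a range of -0.48 to 1.16. The median over all 22470 kept probes was -0.157, with the 25th and 75th percentiles at -0.824 and 0.649. In sponge cells the members' median was 0.54 ± 0.08, with 13 probes above 0 and 4 below and a range of -0.79 to 1.17, and that of all kept probes was -0.127. An IP/T of 2 or more was found in EV cells for 2 of 17 member probes (11.8%), 1 each of DCP2 and DDX6, whereas 17.5% of all kept probes reached it. In sponge cells it was 3 of 17 (17.6%), 1 each of PAN2, PAN3 and DCP2, beside 17.5% of all kept probes. The shares of members were below or at the background, so the 2-fold calls do not set these genes apart. In the opposite direction, 0 of 17 member probes had a T/IP of 2 or more in EV or in sponge cells, whereas 19.0% and 17.8% of all kept probes did. A test for these differences was not possible with 1 RNA sample per group. Because each channel was brought to the same distribution, a ratio gives the place of a transcript in IP relative to its place in T.

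**Figure D1:**
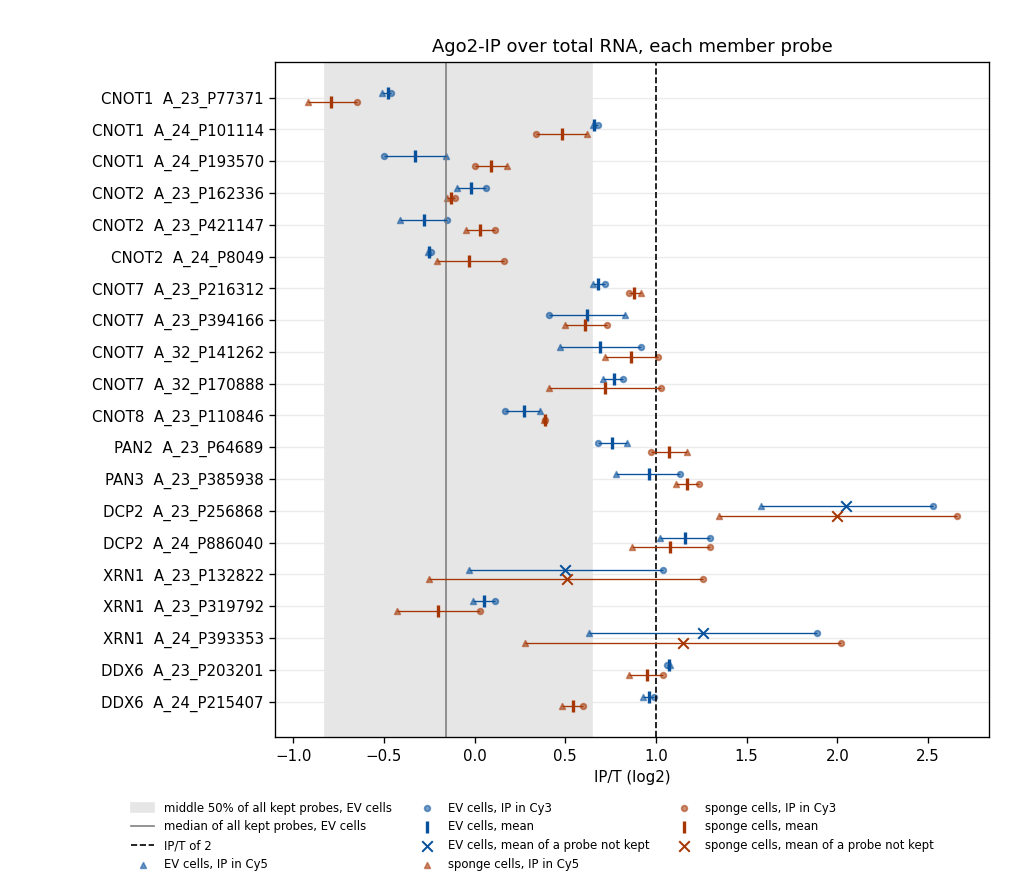
Log2 IP/T ratio (horizontal axis) of each of the 20 member probes (vertical axis) in EV cells (blue) and sponge cells (brown). Triangles and circles are the orientations with IP in Cy5 and in Cy3, and the line joins them. Bars are means of kept probes and crosses are means of the 3 probes that were not kept. The means of the kept probes of DCP2, DDX6 and PAN3 in EV cells lie near or past the dashed 2-fold line. In sponge cells those of PAN2, PAN3 and DCP2 lie past it. The means of A_23_P256868 (DCP2) and A_24_P393353 (XRN1), which were not kept, lie past it in both populations. CNOT1 has probes on both sides of 0.

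CNOT1 is the scaffold on which the other CCR4-NOT subunits assemble and which binds TNRC6 proteins and DDX6. Its 3 kept probes did not give 1 answer. Probe A_24_P101114, annotated to transcript NM_206999, had a signal (log2) in EV cells of 9.03 (Cy3) and 9.14 (Cy5) in T and of 9.82 and 9.67 in IP. In sponge cells it had 9.21 and 9.30 in T and 9.64 and 9.83 in IP. IP was thus above T in both populations with no overlap, and the log2 IP/T was 0.66 ± 0.03 in EV and 0.48 ± 0.20 in sponge cells. Probe A_23_P77371, annotated to transcript NM_016284, went the other way. Its signal in EV cells was 11.32 and 11.29 in T and 10.84 and 10.81 in IP, and in sponge cells 11.49 and 11.44 in T and 10.79 and 10.57 in IP. T was above IP in both populations with no overlap, and the log2 IP/T was -0.48 ± 0.04 in EV and -0.79 ± 0.19 in sponge cells. The other NM_016284 probe, A_24_P193570, had -0.33 ± 0.24 in EV and 0.09 ± 0.13 in sponge cells. In EV cells the probes of CNOT1 were thus spread over 1.15 on the log2 scale, a larger spread than that between the dye orientations of any of them.

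CNOT2, which holds the NOT module together with CNOT1, was near equal in IP and T on its brightest probe. On its other probes it was somewhat lower in IP in EV cells. Its 3 probes had a log2 IP/T of -0.02 ± 0.11 (A_23_P162336), -0.28 ± 0.19 (A_23_P421147) and -0.25 ± 0.02 (A_24_P8049) in EV cells, a range of 0.26. In sponge cells they lay between -0.13 and 0.03. The brightest, A_23_P162336, had 12.57 and 12.52 in T and 12.57 and 12.47 in IP of EV cells (Cy3 and Cy5). Its T and IP values overlapped in EV cells and its ratio kept its sign under 10 of 13 other settings. For A_23_P421147 and A_24_P8049, T lay above IP with no overlap in EV cells, and the ratio kept its sign under 13 of 13. With normexp, loess and Aquantile, however, the ratios were -0.12 and -0.01, the second of them near equality. Settings that change only the detection or dye filter cannot change the value of a probe and count here as agreeing.

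CNOT7 (CAF1) and CNOT8 (POP2) are alternative catalytic subunits of the complex and close paralogs. The 4 CNOT7 probes, 2 annotated to each of 2 transcripts, gave nearly the same ratio, with a log2 IP/T in EV cells of 0.62 to 0.77 and a range of 0.15. In sponge cells they ran from 0.61 to 0.88. CNOT7 was thus above the median of all kept probes on all 4 of its probes in both populations, without reaching 2-fold on any. Its brightest probe, A_32_P170888, had 13.14 and 13.05 in T and 13.87 and 13.85 in IP of EV cells, and 13.16 and 12.58 in T and 13.61 and 13.57 in IP of sponge cells. IP was higher than T in each population with no overlap, and the low T value was that of the sponge Cy5 channel. CNOT8 was measured by 1 probe, A_23_P110846, with 10.06 and 10.18 in T and 10.35 and 10.42 in IP of EV cells. Its log2 IP/T was 0.27 ± 0.13 in EV and 0.39 ± 0.01 in sponge cells, below all 4 CNOT7 probes in both.

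PAN2 is the catalytic subunit of the other deadenylase complex, and PAN3 is the subunit that docks on TNRC6 proteins and poly(A)-binding protein. Each was measured by 1 probe, and both had IP above T. PAN2 (A_23_P64689) had 9.44 and 9.58 in T and 10.27 and 10.27 in IP of EV cells, and 9.34 and 9.55 in T and 10.52 and 10.50 in IP of sponge cells. Its log2 IP/T was 0.76 ± 0.11 (1.69-fold) in EV and 1.07 ± 0.14 (2.10-fold) in sponge cells. All IP values of PAN2 were above all T values. PAN3 (A_23_P385938) had 8.70 and 8.34 in T and 9.47 and 9.48 in IP of EV cells, and 8.42 and 8.22 in T and 9.45 and 9.53 in IP of sponge cells. Its log2 IP/T was 0.96 ± 0.24 (1.94-fold) in EV and 1.17 ± 0.09 (2.25-fold) in sponge cells. For both genes the EV value lay under the 2-fold limit and the sponge value just over it, with a difference of 0.31 ± 0.03 for PAN2 and 0.22 ± 0.15 for PAN3. PAN2 in sponge cells stayed at 2-fold or more under 9 of 13 other settings and PAN3 under 11 of 13, and PAN3 in EV cells reached it under 2. These tallies include settings that change only the detection or dye filter, which cannot change the value of a probe. With background correction of the median signal by normexp and quantile normalisation, the sponge values were 0.67 (PAN2) and 0.48 (PAN3). With normexp, loess and Aquantile they were 0.63 and 0.42, so all of these lay below the limit. The EV value of each gene was 0.55 under that last setting.

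DDX6, a DEAD-box helicase that links CCR4-NOT to the decapping factors, had IP above T on both of its probes. Only A_23_P203201 in EV cells reached 2-fold. Probe A_23_P203201 had 9.07 and 9.07 in T and 10.13 and 10.15 in IP of EV cells, and 9.20 and 8.84 in T and 9.88 and 10.05 in IP of sponge cells. Its log2 IP/T was 1.07 ± 0.02 (2.10-fold) in EV and 0.95 ± 0.14 (1.93-fold) in sponge cells. IP was above T with no overlap in either population. Probe A_24_P215407 had 11.52 and 11.34 in T and 12.34 and 12.45 in IP of EV cells, and 11.57 and 11.45 in T and 12.05 and 12.05 in IP of sponge cells. Its log2 IP/T was 0.96 ± 0.04 (1.95-fold) in EV and 0.54 ± 0.08 (1.46-fold) in sponge cells. The probes agree within 0.10 in EV cells and differ by 0.40 in sponge cells. With background correction of the median signal by normexp and quantile normalisation, A_23_P203201 had 0.58 in EV cells, below the limit. It reached the limit under 11 of 13 other settings, which include filter settings that cannot change the value of a probe.

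DCP2, the enzyme that removes the cap, had the highest ratio of the kept member probes in EV cells. Its kept probe A_24_P886040 had 10.44 and 10.36 in T and 11.66 and 11.46 in IP of EV cells, and 10.70 and 10.34 in T and 11.64 and 11.57 in IP of sponge cells. The log2 IP/T was 1.16 ± 0.19 (2.23-fold) in EV and 1.08 ± 0.30 (2.12-fold) in sponge cells. All IP values lay above all T values. The ratio was at least 2-fold under 12 of 13 other settings in EV cells and 8 of 13 in sponge cells. These tallies include filter settings, which cannot change the value of a probe. The second DCP2 probe, A_23_P256868, had 2.05 ± 0.67 in EV and 2.00 ± 0.92 in sponge cells but was not kept, since its dyes differed by 1.08 on the log2 scale in sponge T, just past the limit of 1. Its orientations (1.58 and 2.53 in EV, 1.35 and 2.66 in sponge cells) were all above 1. Both DCP2 probes were thus enriched, by amounts that differ. With normexp, loess and Aquantile the EV values of A_23_P256868 and A_24_P886040 were closer, at 1.35 and 1.03. With normexp and quantile normalisation they were 1.09 and 0.91.

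XRN1, the main cytoplasmic 5′ to 3′ exonuclease, was near equal in IP and T on its kept probe, A_23_P319792. The signal was 10.01 and 9.95 in T and 10.06 and 10.00 in IP of EV cells, and 10.21 and 9.81 in T and 9.84 and 9.78 in IP of sponge cells. T and IP overlapped in both populations, and the log2 IP/T was 0.05 ± 0.09 in EV and -0.20 ± 0.33 in sponge cells. The 2 other XRN1 probes were dim and were not kept, with dye differences of up to 1.13 (A_23_P132822) and 1.48 (A_24_P393353). They had ratios of 0.50 ± 0.75 and 1.26 ± 0.89 in EV cells, so the orientations of a single probe differed by more than 1.

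**Figure D2:**
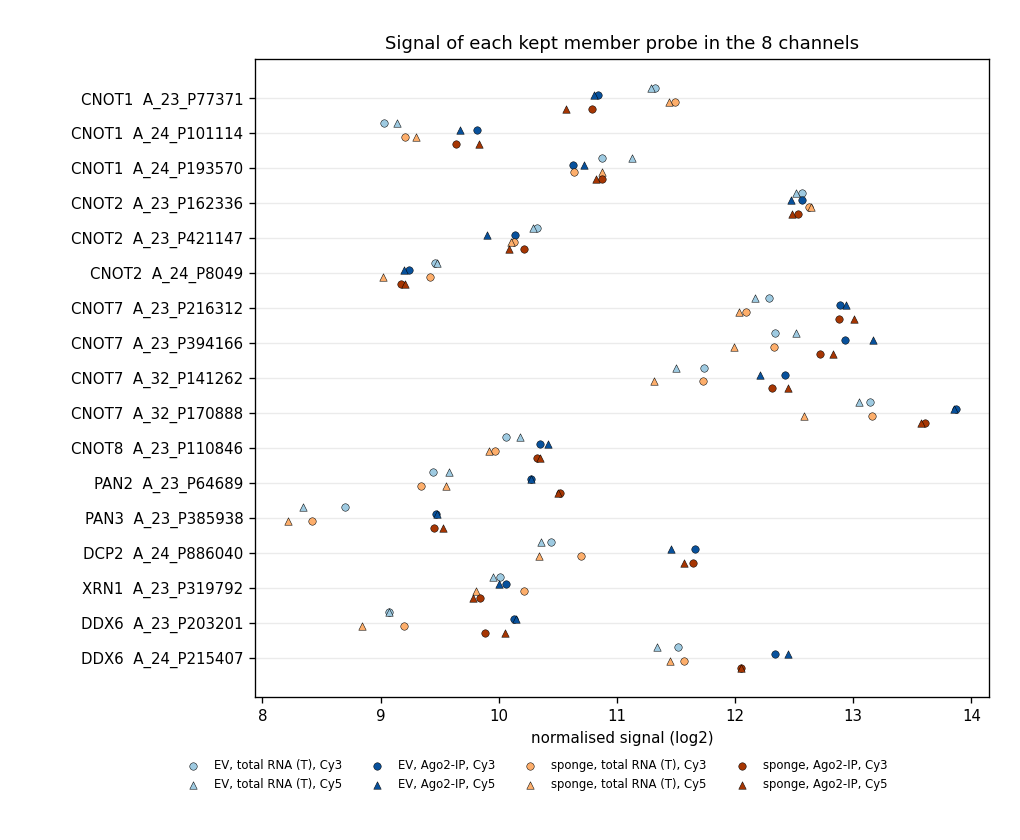
Normalised signal (log2, horizontal axis) of the 17 kept member probes (vertical axis) in the 8 channels; light symbols are T, dark symbols IP, blue EV, orange to brown sponge cells, circles Cy3 and triangles Cy5. IP lies to the right of T for PAN2, PAN3, DCP2, DDX6 and the 4 CNOT7 probes, and signals of different probes are not comparable.

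The second comparison asked whether the mRNAs of the decay factors changed between EV and sponge cells, in T or in IP. Changes were small. In T the median change of the 17 member probes (sponge minus EV, log2) was -0.10 ± 0.09, with 6 probes higher and 11 lower and a range of -0.27 to 0.17, and the median over all kept probes was -0.015. The members' median was -0.007 from the Cy3 labels and -0.139 from the Cy5 labels, and the Cy5 value includes the sponge T channel with the lowest share of spots above background. The part of that channel in the shift was not tested. No sign can therefore be given for the shift. A change of at least 1.25-fold with the same sign in both dyes was used as a descriptive limit. In T 0 of 17 member probes passed it upwards and 0 downwards, beside 6.44% and 6.93% of all kept probes.

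The T changes of CNOT1 repeated within 0.02 (SD) between the dyes on each of its 3 probes, but the probes of CNOT1, and likewise those of CNOT2, went both ways. For CNOT1 they were 0.16 ± 0.01 (A_23_P77371), 0.17 ± 0.02 (A_24_P101114) and -0.25 ± 0.01 (A_24_P193570). For CNOT2 A_23_P421147 had -0.18 in both dyes, A_23_P162336 had 0.09 ± 0.05, and A_24_P8049 had -0.25 ± 0.30. A direction for the gene cannot be read from such probes. All 4 CNOT7 probes had a negative mean change in T, from -0.27 to -0.10, and for 3 of them it came mainly from the Cy5 labels. For example, A_23_P394166 had -0.01 in Cy3 and -0.53 in Cy5, whereas A_23_P216312 had -0.19 and -0.14. CNOT8 had -0.17 ± 0.11 and PAN3 -0.20 ± 0.12, both negative in each dye. PAN2 (-0.07 ± 0.05), DCP2 (0.12 ± 0.20), XRN1 (0.03 ± 0.24) and DDX6 (-0.05 ± 0.25 and 0.08 ± 0.04) were all smaller than 0.13 in size.

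In IP the median change of the member probes was -0.02 ± 0.04, with 7 higher and 10 lower and a range of -0.34 to 0.24, and the median over all kept probes was 0.006. Past the limit of 1.25-fold were 0 of 17 probes upwards and 1 of 17 (5.88%) downwards, beside 5.99% and 5.26% of all kept probes. The 1 probe was A_24_P215407 of DDX6, which changed by -0.29 in Cy3 and -0.40 in Cy5, a mean of -0.34 ± 0.08. Both sponge IP values of this probe lay below both EV IP values, and under 13 other settings the change was between -0.40 and -0.29. The other DDX6 probe had the same sign in both dyes and a smaller change, -0.18 ± 0.10. The 1 called probe of 17 is close to the background share.

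Further IP values repeated between the dyes. In IP the sign was the same in both dyes for 10 of 17 member probes and for 16541 of all 22470 kept probes. PAN2 was higher in the IP of sponge cells by 0.24 ± 0.02, with a change in T of -0.07 ± 0.05. XRN1 was lower by 0.22 ± 0.01 on its kept probe. Its 2 dim probes that were not kept went the other way, with 0.12 in both dyes (A_23_P132822) and 0.28 ± 0.08 (A_24_P393353). A direction for XRN1 cannot be read from these probes. The 2 CNOT7 probes annotated to NM_013354 were lower, with -0.27 ± 0.10 (A_23_P394166) and -0.26 ± 0.01 (A_32_P170888), whereas the 2 annotated to NM_054026 had 0.03 ± 0.06 (A_23_P216312) and 0.07 ± 0.24 (A_32_P141262). The dyes of A_32_P141262 had opposite signs (-0.10 in Cy3 and 0.24 in Cy5), and a difference between the transcripts was not tested. None of these values reached 1.25-fold.

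**Figure D3:**
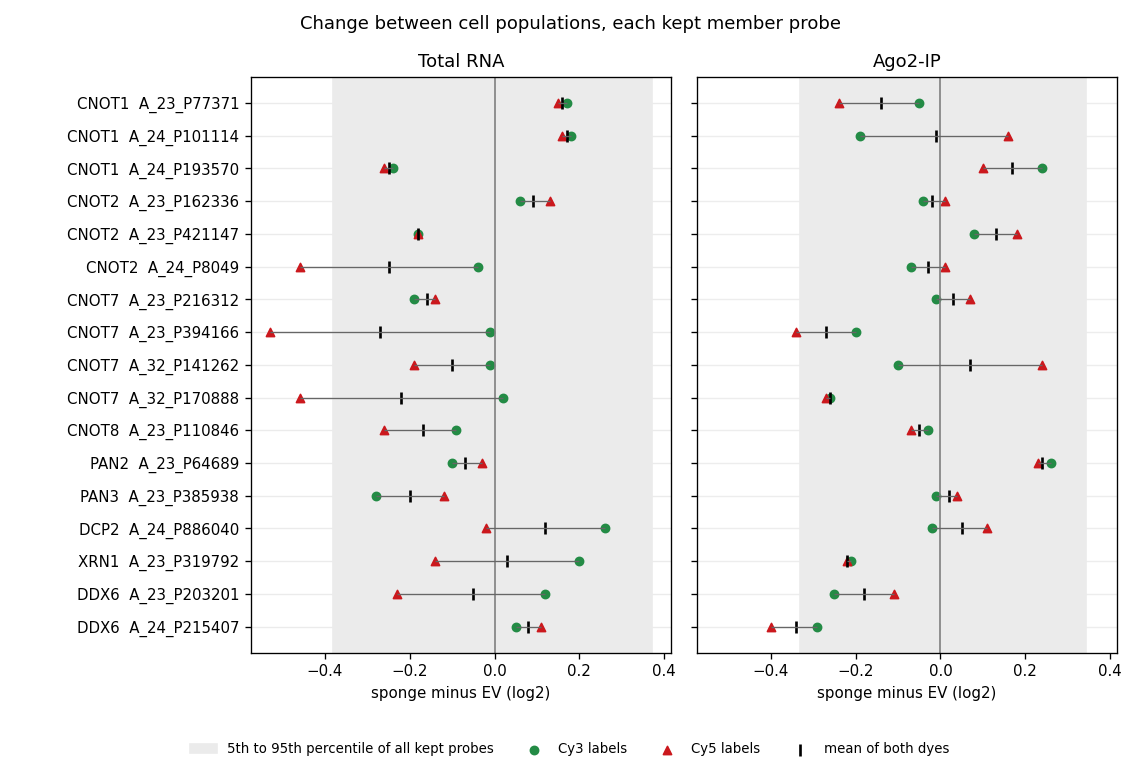
Change between populations (sponge minus EV, log2, horizontal axes) of the 17 kept member probes (vertical axis) in T (left) and in IP (right); circles are Cy3, triangles Cy5, bars the mean of both, and the grey area spans the 5th to 95th percentile of all kept probes. In T the dyes lie far apart for XRN1, DCP2 and several CNOT7 probes, and in IP only the mean of DDX6 probe A_24_P215407 (-0.34) lies outside the grey area.

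The change in the IP/T ratio had a median of -0.004 ± 0.09 over the members, with 8 probes higher and 9 lower in sponge cells and a range of -0.42 to 0.41, beside 0.017 over all kept probes. Past 1.25-fold with the same sign in both orientations, 1 of 17 member probes was higher (CNOT1 A_24_P193570, 0.41 ± 0.11) and 1 lower (DDX6 A_24_P215407, -0.42 ± 0.04), beside 8.95% and 6.32% of all kept probes. The CNOT1 value combined a lower T (-0.25 ± 0.01) with a higher IP (0.17 ± 0.10), and the other CNOT1 probes had -0.30 ± 0.15 and -0.18 ± 0.23. The DDX6 value lay in IP (-0.34 ± 0.08), with a T change of 0.08 ± 0.04. The second DDX6 probe had -0.12. The differences given above for PAN2 and PAN3 were positive in both orientations. With normexp, loess and Aquantile, however, the log2 IP/T of PAN3 was lower in sponge cells (0.42) than in EV cells (0.55). That of PAN2 was 0.63 and 0.55, so the PAN3 difference changed sign and the PAN2 difference was smaller.

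Other genes of mRNA decay were taken from 5 lists of 67 genes, of which 60 had a kept probe, each gene at its probe of highest mean signal. Their median ratio (log2 IP/T) was 0.08 in EV and 0.06 in sponge cells. An IP/T of 2 or more was found for 13 of 60 genes in EV cells and 12 of 60 in sponge cells, beside 17.5% of all kept probes in each, and a T/IP of 2 or more for 11 and 6, beside 19.0% and 17.8%. The IP/T counts are near the background shares. The lists differed in where their genes lay. The 11 other CCR4-NOT genes with a kept probe had a median of 0.88 ± 0.15 in EV cells, with 5 at an IP/T of 2 or more and 1 at a T/IP of 2 or more. The highest of these was BTG2, an antiproliferative protein that binds CNOT7, with 5.00 ± 0.06 in EV and 4.87 ± 0.29 in sponge cells. The lowest was CNOT3, a NOT-module subunit, with -1.65 ± 0.19 and -1.68 ± 0.14. This list holds both subunits of the complex and proteins that bind it, such as the BTG and TOB proteins. Among the CNOT subunits in it with a kept probe, CNOT3 and CNOT10 (-0.87) lay below 0 and CNOT9 (0.88 ± 0.15) and CNOT4 (1.12) above it.

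The 6 other deadenylases had a median of 0.30 ± 0.13, between TOE1 at -0.91 ± 0.08 and PDE12, a mitochondrial deadenylase, at 1.49 ± 0.05. Of the 17 decapping and P-body genes, 4 had an IP/T and 5 a T/IP of 2 or more in EV cells, and the EV median was 0.23 ± 0.19. In sponge cells the counts were 3 and 0. The T/IP shares of all kept probes were 19.0% in EV and 17.8% in sponge cells. Of the 5 genes, LSM7 (-1.01) and NUDT16 (-1.03) lay just past the limit in EV cells. Their IP/T changed by 0.01 ± 0.13 and 0.12 ± 0.14. EDC4 (0.64 ± 0.06), LSM2 (0.39 ± 0.12) and LSM4 (0.33 ± 0.19) rose by 1.25-fold or more. The fall in the T/IP count was not tested. LSM14A, a P-body protein that binds DDX6, had 2.64 ± 0.04 and EDC4, the scaffold of the decapping complex, had -1.24 ± 0.35 in EV and -0.60 ± 0.29 in sponge cells. The mRNAs of DCP2 and of its scaffold EDC4 thus lay on opposite sides of 0. The 7 miRISC adaptor and poly(A)-binding genes had a median of 0.61 ± 0.12, and 2 reached an IP/T of 2. TNRC6A, which recruits both deadenylase complexes to Ago2, had 3.29 ± 0.42 and PAIP2 had -0.35 ± 0.06. The 19 exonuclease and exosome genes had a median of -0.37 ± 0.01, with 0 at an IP/T and 5 at a T/IP of 2 or more. Here EXOSC6, an exosome core subunit, was highest at 0.76 ± 0.02 and SKIC2, the helicase of the SKI complex, lowest at -1.48 ± 0.17. The median of this list, which also holds SKI complex and other non-catalytic proteins, was below that of all kept probes, and XRN1 at 0.05 lay above their median.

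Between the populations, 1 of the 60 genes was higher and 3 were lower in T by 1.25-fold or more, beside 6.44% and 6.93% of all kept probes, and 0 were higher and 1 lower in IP, beside 5.99% and 5.26%. The largest change in T was that of TNKS1BP1, a CCR4-NOT-associated protein, with 1.06 ± 0.89, whose dyes differed by more than the change itself. The largest in IP was that of PAIP1, a translation factor that binds poly(A)-binding protein, with -0.37 ± 0.11. For IP/T, 5 were higher and 3 lower in sponge cells, beside 8.95% and 6.32%. None of these counts stands clear above the background shares.

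**Figure D4:**
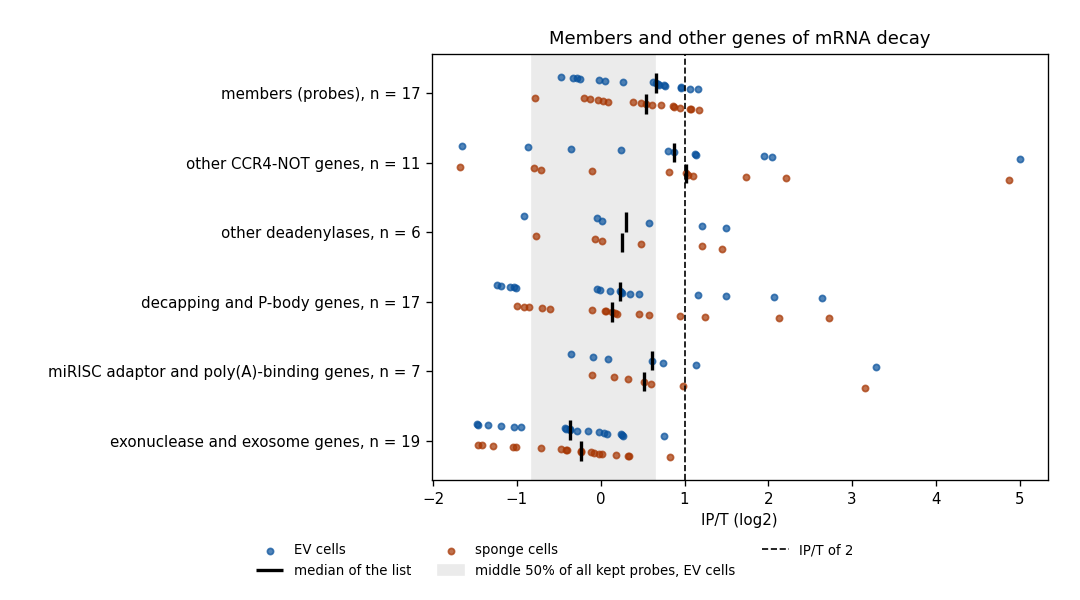
Log2 IP/T (horizontal axis) of the 17 kept member probes and of the genes of 5 other mRNA decay lists (1 probe per gene) in EV cells (blue) and sponge cells (brown); black bars are medians and the grey area spans the 25th to 75th percentile of all kept probes in EV cells. The members lie between -0.48 and 1.16 in EV cells, whereas BTG2 of the other CCR4-NOT genes lies at 5.00 and no exonuclease or exosome gene reaches the dashed 2-fold line.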

How the data were processed

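Per the file headers, the arrays were Agilent 44k two-colour arrays read with Feature Extraction (version 10.7.3.1; the submitters' processing notes give 10.5.1.1), all on 1 slide and in 1 scan. The deposited intensity values were the processed signals of each channel, already background-subtracted and dye-normalised, and the authors also deposited a table of log2 values after quantile normalisation. Here the processed intensity was quantile-normalised over the 8 channels with limma 3.58.1 in R 4.3.3, on the log2 scale, after spots of 1 probe were averaged. A probe was kept if well above background in at least 4 of 8 channels and if no group differed by more than 2-fold between Cy3 and Cy5, the filters of the study. Of 41000 probes, 60 had no value in a channel, and of 25827 detected probes 22470 were kept. These values lay within 0.00301 (largest median distance over channels, log2) of the deposited log2 values, a table that holds all 17 kept member probes. The number of arrays limits the precision.

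Probes were named by matching the accession in the files, without version, to a RefSeq gene table (GRCh38.p14), which named 69.5% of the kept probes. IP/T is the mean IP minus the mean T of a population on the log2 scale. Groups had 1 RNA sample each, so no test was run. Members and gene lists were chosen with earlier results of these data known. All members and all their matched probes are named, and the unmatched CNOT6 probes are not. Of each other list the genes with the highest and the lowest EV IP/T are named, and over all lists the gene with the largest change in T and in IP. Genes of these lists named beyond this rule were picked after their values were seen. The scripts were tested on simulated data. Alternatives were other background corrections and scalings (normexp with offset 50 on median signals, since mean signals were not in the columns used; the 75th percentile), the deposited table, other detection and dye filters, 1 array orientation, 1 dye, 1 probe per gene, and, chosen after the data were seen, sponge T without its Cy5 channel.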

Additional observations from a re-analysis of the deposited data

Results flagged for a closer look

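In 4 of the 60 genes of the other mRNA decay lists with a kept probe, the log2 IP/T had opposite signs in EV and sponge cells. Each had the same sign in both dye orientations of a population. The share of all kept probes that did so is not given, so the count cannot be set against a background. The difference was not tested, since each group was 1 RNA sample, and the genes outside the naming rule were picked after their values were seen. XRN2, the nuclear 5′ to 3′ exonuclease and paralog of XRN1, had -0.37 ± 0.10 in EV and 0.18 ± 0.06 in sponge cells, a difference of 0.55 ± 0.04, with changes of -0.40 ± 0.06 in T and 0.15 ± 0.10 in IP. PABPC4, a poly(A)-binding protein, had -0.09 ± 0.04 in EV and 0.33 ± 0.20 in sponge cells, a difference of 0.41 ± 0.16. EIF4ENIF1, the eIF4E-binding P-body protein, had 0.23 ± 0.19 and -0.10 ± 0.13, a difference of -0.33 ± 0.06. TNKS1BP1 had 0.24 ± 0.30 and -0.71 ± 0.36, a difference of -0.95 ± 0.66, and was well above background in 7 of 8 channels.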

How the results depend on the processing

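The members' counts and medians were recomputed under 14 other settings, 1 of them chosen after the data were seen, and each kept member probe under 13 of these. For a single probe, settings that changed only the detection or dye filter return the main value by construction. The deposited values come from nearly the same normalisation, and leaving out sponge T in Cy5 cannot change an EV ratio. Tallies of agreeing settings for a probe thus include some that were fixed in advance. The other gene lists and the markers were not recomputed. The median change of the members in IP moved by less than its SD under all 14, from -0.06 to 0.011. The medians of IP/T stayed above 0 under all 14, between 0.385 and 0.759 in EV cells and between 0.331 and 0.603 in sponge cells. The values that moved by more than the SD, or for counts by more than 1.5 times, were these. With normexp, loess and Aquantile the EV and sponge medians were 0.511 and 0.353, the sponge count of 2-fold probes 1 and the T change 0.009. With normexp and quantile normalisation the medians were 0.385 and 0.331 and both counts 1. Both keep 20 member probes, so the probes differ too. Without the dye filter the counts were 4 in EV and 5 in sponge cells. The arrays with IP in Cy5 gave a T change of -0.007, and those with IP in Cy3 a sponge count of 5 and an IP/T change of 0.106. With 1 probe per gene the EV count was 1, the EV median 0.759 and the T change 0.029. With 1 dye alone the EV count was 2 to 4, the EV median 0.602 to 0.645, the sponge median 0.428 to 0.603, the T change -0.139 to -0.007 and the IP/T change -0.102 to 0.185. Without the Cy5 channel of sponge T, which sets 1 dye against the mean of 2, the EV median was by construction still 0.664, the sponge median 0.446, the T change 0.069 and the IP/T change -0.106. The cause was not tested. No paired analysis was possible because each group was 1 RNA sample. The sign of the members' median changes between populations in T and in IP/T is thus not settled. Signal over background limits the 2 dim XRN1 probes.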
